A study of Cuscuta campestris with 8 samples.

Results

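The genes described here are the abundant transcripts of Cuscuta campestris whose mean level was the same in haustorial region and shoot. They were chosen by 2 criteria on the counts of all 8 libraries: a mean CPM of 100 or more (CPM is the number of counts per 1000000 of a library, here after scaling by trimmed mean of M values, TMM) and a log2 ratio of haustorial over shoot mean CPM between -0.1 and 0.1. These criteria found 158 genes, 10.1% of the 1558 genes with at least 100 CPM and 0.481% of the 32855 genes tested, out of 45825 listed. The ratio was above 0 in 81 of them and below 0 in 77. Because the criteria use the tissue means, the equality of those means is how the genes were picked and is not a result.

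Cuscuta campestris is a leafless parasitic vine that draws water, sugars and minerals from its hosts through haustoria, organs that grow out of the stem and press into host tissue. In this study it was grown without a living host. Vegetative shoot tips of 3 cm, cut from plants on Beta vulgaris and surface-sterilized, were attached to an artificial host holding a liquid medium with the auxin 1-naphthaleneacetic acid (NAA) at 3 mg per litre and the cytokinin 6-benzylaminopurine (BA) at 1 mg per litre. All plants of both groups received these hormones, 2.5 days of light rich in far-red and 12.5 days of full-spectrum light, and were sampled 15 days after inoculation. The haustorial region carried holdfasts and had been separated from shoots and lateral meristems. The shoot group was new stem with its meristems, taken once the nearest 5 mm of stem beside the holdfasts had been cut off. Each tissue had 4 pools of 3 to 4 plants, and no untreated or host-grown group was included, so differences of tissue cannot be told apart from differences in meristem content or in contact with the medium. Where p-values are given, they judge a difference between the tissues, in level or in spread, against the variation between these pools. That variation may in part be technical.

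Genes that keep a steady level across tissues serve in expression studies as internal standards, and in plants such genes often belong to basic functions of every cell, such as translation, protein turnover and the cytoskeleton. Whether any of the genes here belongs to those groups cannot be said here, because the files give identifiers without names and none of the 45825 identifiers matched the 45474 genes of the annotation available. For the same reason the tissue labels could not be compared with marker genes. The genes are therefore described by level, spread and rank of abundance (rank 1 is the highest mean CPM), and at most 4 are given by identifier. In bulk tissue, fewer cells expressing a gene and less RNA per cell cannot be told apart, so an equal level in 2 tissues can also be reached by different cells.

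Library totals were 23465088 to 31246017 counts in the haustorial region and 22334600 to 34247925 in the shoot. Replicate libraries were not duplicates of each other, since pairs within a tissue had a chi-square per degree of freedom of 5.43 to 29.5, where sampling alone gives about 1. The equal-level genes had mean counts per library of 2697 to 38661, with a median of 3850, and no count under 1583 in any library. Counting error at these depths corresponds to an SD of about 0.024 on the log2 scale in haustorial and 0.023 in shoot libraries. All 158 genes passed the expression filter in both tissues, so none was kept through 1 tissue alone.

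In abundance the equal-level genes were distributed much like abundant genes in general, with 69.0% between 100 and 200 CPM against 66.8% of all abundant genes. Their mean levels ran from 101 to 1432 CPM with a median of 144 CPM, and quartiles of 117 and 225 CPM. Between 100 and 200 CPM they made up 109 of 1040 genes (10.5%), between 200 and 500 CPM 38 of 408 (9.31%), between 500 and 1000 CPM 9 of 75 (12%), and at 1000 CPM or more 2 of 35 (5.71%). Equal levels were thus found in every class of abundant genes. Among less abundant genes, a ratio within the same limits was measured for 14.6% of the 17651 genes of 10 to 100 CPM, 10.1% of the 11561 genes of 1 to 10 CPM and 6.09% of the 2085 tested genes under 1 CPM, where counting error alone moves a ratio further.

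The limit on the ratio divides a continuous distribution. In the histogram of ratios, the class from -0.1 to 0.1 was not the fullest: the next class up, from 0.1 to 0.3, held 175 abundant genes. Above the upper limit lay 791 abundant genes and below the lower limit 609, and the median log2 ratio of abundant genes was 0.11, against -0.02 over all tested genes. The 3 genes just inside the ratio limit had log2 ratios of 0.0971, -0.0981 and 0.0998, and the 3 just outside had -0.1004, -0.1005 and -0.1005. At the limit on level, the 3 genes just inside had means of 100.5, 100.8 and 102 CPM, and the 3 just outside had 98.6, 99.1 and 99.2 CPM.

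**Figure D1:**
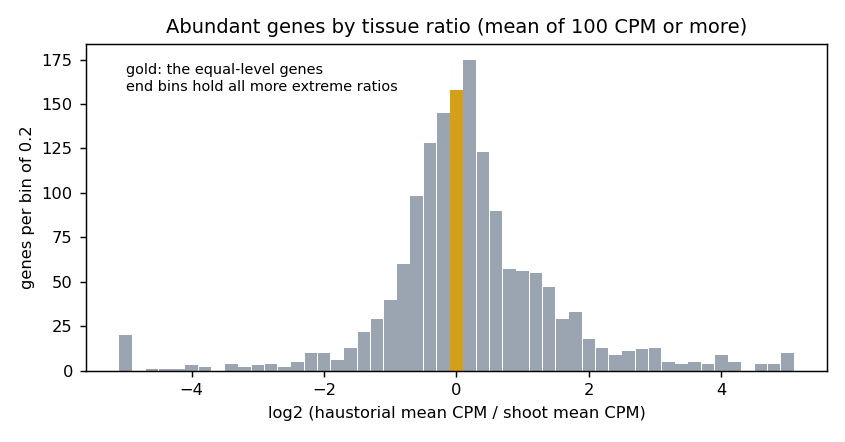
Number of abundant genes (mean of at least 100 CPM) in classes of 0.2 of the log2 ratio of haustorial over shoot mean CPM, with the 158 equal-level genes in gold and all ratios beyond the axis placed in the end classes. The gold class sits beside the fullest class, which holds 175 genes from 0.1 to 0.3.

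Equality of the tissues depended on how libraries were scaled. As a share of each library's total counts, the 158 genes together held 3.07%, 2.88%, 2.95% and 3.20% in haustorial libraries 1 to 4 and 3.42%, 3.48%, 3.43% and 3.42% in shoot libraries 1 to 4. On this scale every haustorial library was below every shoot library, with means of 3.02% ± 0.14 (SD, n = 4) and 3.44% ± 0.03. The log2 difference of the mean shares was -0.18. After TMM scaling the summed level was 32309 ± 733 CPM in haustorial and 32205 ± 757 CPM in shoot libraries, and the libraries overlapped, which the criteria fix. With no scaling factor, the median log2 ratio of the 158 genes was -0.19 (range -0.29 to -0.09), only 7 of them stayed within 0.1, and the median of all tested genes moved by -0.19 as well. On that scale edgeR called 51 of the 158 at an adjusted p under 0.05, all lower in the haustorial region, against 66.2% of all tested genes called and 44.3% called lower. With the RLE and upper-quartile scalings, 149 and 151 of them stayed within the limit. The genes are thus equal relative to the typical gene of each tissue, and lower in the haustorial region relative to its total counts.

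**Figure D2:**
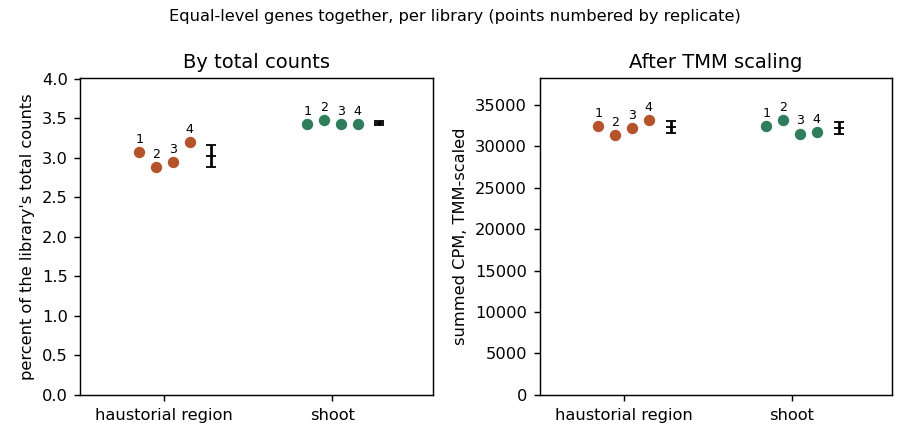
Summed level of the 158 equal-level genes in each library, as percent of total counts (left) and as TMM-scaled CPM (right), with points numbered by replicate and bars giving mean and SD of 4 libraries. The shoot points sit at 3.42% to 3.48% above all haustorial points on the left, and the tissues overlap on the right.

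How closely each gene is known to be equal was read from the interval of its tissue difference. The 95% interval of the log2 fold change (edgeR quasi-likelihood fit over all tested genes) had a median half-width of 0.19, which is 1.14-fold, and ran from 0.15 for the best to 0.55 for the least well measured gene. The interval lay wholly within 1.2-fold in either direction for 106 of the 158 genes and within 1.5-fold for all 158. Without shoot replicate 1, 2 or 4 the first number was 67, 67 and 61. Even the narrowest half-width was thus above the 0.1 that chose the genes, so a true difference of somewhat more than 0.1 cannot be set aside for any of them. None of the 158 genes was called different between tissues by edgeR at an adjusted p under 0.05, against 65.2% of all tested genes; the criteria used this contrast, and nothing is read from that count. The lowest adjusted p among them by edgeR was 0.264, and none had an unadjusted p under 0.05. DESeq2 called 21487 of the 32855 tested genes and 0 of the 158, from which nothing is read for the same reason. Tissues were fully separated, with no overlap of their libraries, for 1 of the 158 genes, against 60.4% of all tested genes. That gene, of rank 63 and noticed for its values, had 155, 154, 168.9 and 166 CPM in haustorial libraries 1 to 4 and 169.0, 169.4, 178 and 170 CPM in shoot libraries 1 to 4, so that the tissues only just missed overlapping.

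The most abundant equal-level gene was Cc014823. It was measured at 1365, 1228, 1552 and 1667 CPM in haustorial libraries 1 to 4 and at 1558, 1721, 1232 and 1134 CPM in shoot libraries 1 to 4. The means were 1453 ± 195 CPM (SD, n = 4) and 1411 ± 275 CPM, a log2 ratio of 0.04. The tissue means nearly coincided while the pools of each tissue differed by up to 1.36-fold in haustorial and 1.52-fold in shoot libraries, and the 95% interval of the log2 fold change was -0.28 to 0.37.

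The gene of rank 2 carries the identifier directly before that of Cc014823. It had 965, 759, 1271 and 1292 CPM in haustorial libraries 1 to 4 and 1224, 1387, 809 and 783 CPM in shoot libraries 1 to 4. Both genes were highest in shoot library 2, lower in haustorial library 2 than in the other haustorial libraries, and lower in shoot libraries 3 and 4 than in shoot libraries 1 and 2. The level of the rank 2 gene was 0.618 to 0.819 times that of Cc014823 over the 8 libraries, a ratio of CPM that is not corrected for length. Reads of near-identical copies may be split or dropped in counting, which would make separate levels uncertain. Whether these genes are such copies could not be checked, because no sequences were available. They were the only genes of the list at or above 1000 CPM, and their pools spread more widely in the shoot than those of most other equal-level genes.

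Other abundant members differed in how far their pools spread. Cc021347, the most abundant with a ratio below 0 (rank 7), was measured at 569, 516, 505 and 558 CPM in haustorial libraries 1 to 4 and at 556, 604, 534 and 542 CPM in shoot libraries 1 to 4. The means were 537 ± 31.3 CPM (SD, n = 4) and 559 ± 31.4 CPM, a log2 ratio of -0.06 with a 95% interval of the fitted change of -0.26 to 0.14. Its tissues overlapped and its pools spread alike in both. The gene of rank 3 had 806, 648, 863 and 945 CPM in haustorial libraries 1 to 4 and 782, 788, 795 and 813 CPM in shoot libraries 1 to 4. Its shoot pools lay close together while its haustorial pools differed by 1.46-fold, with an SD of log2 CPM of 0.23 in haustorial and 0.02 in shoot libraries.

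The steadiest gene on each side of a ratio of 0 was far down the list by abundance. Cc013569 (rank 155) had the lowest coefficient of variation over the 8 libraries, 2.34%, and its highest library was 1.08 times its lowest. It was measured at 101, 103, 98.7 and 104 CPM in haustorial libraries 1 to 4 and at 107, 101, 102 and 101 CPM in shoot libraries 1 to 4. The pools of both tissues fell in the same narrow range, with means of 102 ± 2.1 CPM (SD, n = 4) and 103 ± 2.9 CPM. Among genes with a ratio above 0 the steadiest was Cc037042 (rank 117), with a coefficient of variation of 3.32%. It had 122, 116, 123 and 113 CPM in haustorial libraries 1 to 4 and 114, 121, 119 and 115 CPM in shoot libraries 1 to 4. The means of 118 ± 5.1 CPM and 117 ± 2.9 CPM differed by less than the spread between pools, with a 95% interval of the log2 fold change of -0.14 to 0.17. With no scaling factor the log2 ratio was -0.20 for Cc013569 and -0.18 for Cc037042, whereas RLE scaling gave -0.0012 and 0.03 and upper-quartile scaling -0.03 and 0.00039.

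**Figure D3:**
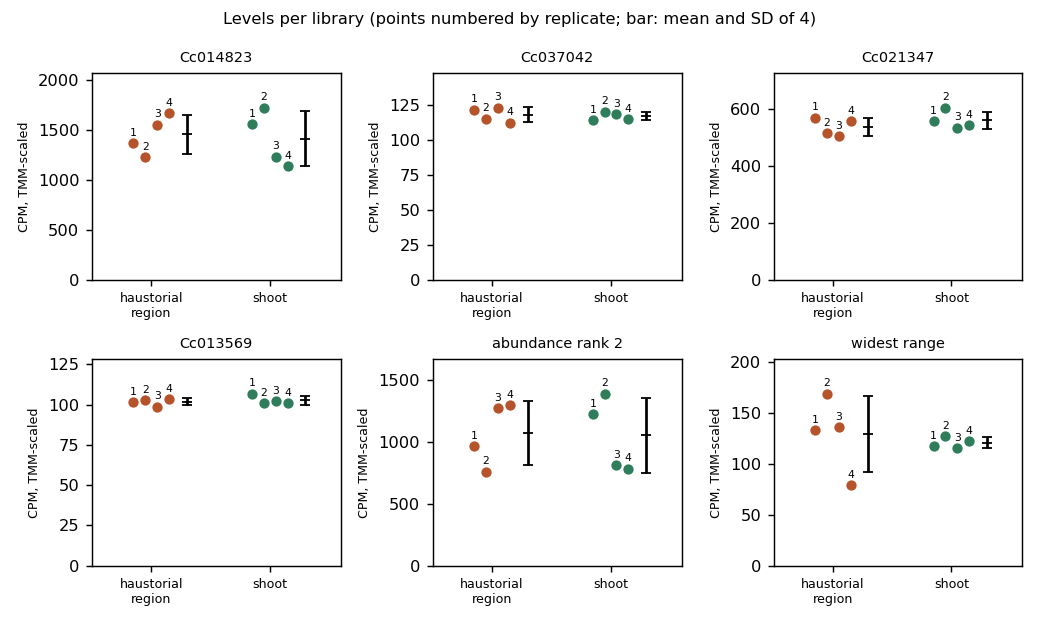
CPM (TMM-scaled) of 6 equal-level genes in the 4 haustorial and 4 shoot libraries, numbered by replicate, with mean and SD beside them. Cc013569 and Cc037042 lie in a narrow band in both tissues, while Cc014823, the gene of rank 2 and the gene with the widest range (rank 105) have near-equal means with pools far apart in at least 1 tissue.

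Equal means did not always go with steady levels. Over the 8 libraries the highest value was under 1.2 times the lowest for 60 of the 158 genes, 1.2 to 1.5 times for 78, 1.5 to 2 times for 18 and over 2 times for 2, with a median of 1.24 times. Within the shoot alone the ratio was under 1.2 for 136 genes and at most 1.77. Within the haustorial region it was under 1.2 for 71 genes and reached 2.14. The widest gene, of rank 105, had 133, 169, 136 and 79.0 CPM in haustorial libraries 1 to 4 and 118, 128, 116 and 122 CPM in shoot libraries 1 to 4. Its haustorial pools lay on both sides of its shoot pools, and its log2 ratio of 0.10 was the closest to the limit. The gene of rank 84 showed the same order of haustorial pools, with 146, 186, 152 and 95.4 CPM in libraries 1 to 4, whereas the gene of rank 152 was highest in library 4 and lowest in library 2, with 75.4, 70.6, 124 and 143 CPM. In shoot libraries 1 to 4 these genes had 125, 154, 126 and 143 CPM and 82.3, 120, 101 and 107 CPM. For such genes the equal mean is an average over unlike haustorial pools.

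Haustorial pools scattered more than shoot pools, a measure the criteria did not use. The SD of log2 CPM over 4 libraries had a median of 0.126 in the haustorial region (quartiles 0.088 and 0.177) and 0.069 in the shoot (quartiles 0.048 and 0.095), both above the counting error given above. It was larger in the haustorial region for 134 of the 158 genes (84.8%), against 68.4% of all tested genes and 81.6% of the 320 abundant genes with log2 ratios of 0.1 to 0.3 in either direction. Without haustorial replicate 3 it was larger there for 105 of the 158 (66.5%), against 59.7% of all genes tested in that fit. Over all tested genes, which are mostly of lower level, the medians were 0.182 and 0.129. The median absolute deviation of the equal-level genes from their tissue mean was 0.066, 0.084, 0.098 and 0.089 in haustorial libraries 1 to 4, and 0.034, 0.052, 0.044 and 0.059 in shoot libraries 1 to 4. Every haustorial library thus deviated more than every shoot library. Without haustorial replicate 3 the haustorial median SD was 0.096, and without haustorial replicate 1 it was 0.142. The haustorial pools also differed more over all tested genes, with a median absolute deviation per library of 0.101 to 0.136 against 0.084 to 0.092 in the shoot, and the part of this general spread in the values of the equal-level genes was not tested.

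A test of the spread gene by gene made no call. With limma on absolute deviations from the tissue mean, adjusted over all tested genes by the Benjamini-Hochberg method, 0 of the 158 genes and 0% of all tested genes passed, and the lowest adjusted p among the 158 was 0.115. At an unadjusted p under 0.05, 33 of the 158 had larger spread in haustorial and 1 in shoot libraries, against 15% and 3.27% of all tested genes. These counts were 65 and 6 of the 320 abundant genes with log2 ratios of 0.1 to 0.3, and 288 and 57 of all 1400 other abundant genes. With both directions together, the shares were 21.5% of the 158, 22.2% of the 320 and 24.6% of the 1400. The equal-level genes thus did not stand out from other abundant genes. With 4 libraries a tissue this test cannot show equal spread. On simulated counts it called 0 of 198 genes whose haustorial dispersion (variance beyond counting error) had been raised 25-fold. With no difference simulated it gave too many unadjusted p-values under 0.05, at 10.8% of genes. In that simulation the test made 0 calls after adjustment, with all libraries or with 1 left out. On the measured counts, with a haustorial library left out, the test called 10, 2, 3 and 2 of the 158 genes without replicates 1 to 4. The shares of all genes tested in those fits were 3.23%, 0.742%, 0.988% and 1.05%. With a shoot library left out the test called 0 of the 158 genes and 0.33%, 0.356%, 0.336% and 0.351% of all genes tested.

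**Figure D4:**
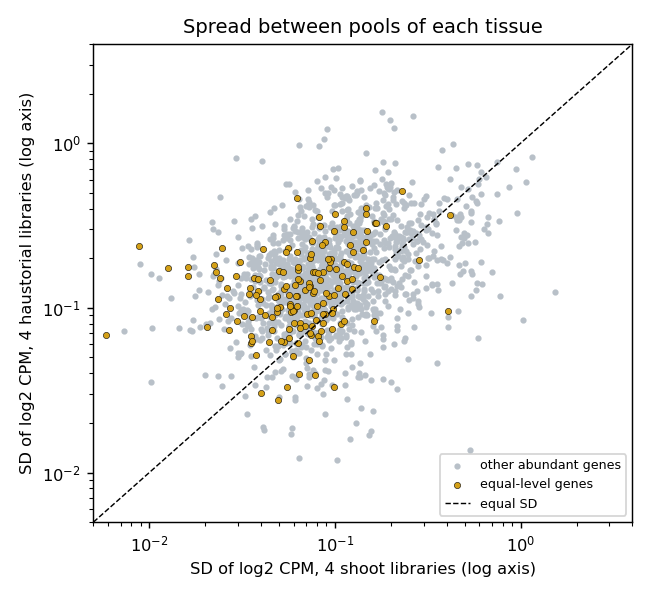
SD of log2 CPM over the 4 haustorial libraries against that over the 4 shoot libraries, both on log axes, for the 158 equal-level genes (gold) and the 1400 other abundant genes (grey). Of the gold points, 134 lie above the dashed line of equal SD.

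The 2 most abundant genes were among the exceptions. For 24 of the 158 genes the SD was larger in the shoot, among them Cc014823 and the gene of rank 2. The largest excess in the shoot was that of the gene of rank 34, with 288, 295, 167 and 198 CPM in shoot libraries 1 to 4 and 250, 231, 243 and 271 CPM in haustorial libraries 1 to 4. Shoot libraries 1 and 2 were high and 3 and 4 low, as for the 2 most abundant genes, and the haustorial pools lay between them. At the other end, the gene of rank 40 had the smallest ratio of highest to lowest shoot library, 1.01, with 228, 230, 230 and 229 CPM in shoot libraries 1 to 4, while its haustorial libraries 1 to 4 had 213, 225, 233 and 211 CPM. Its shoot SD of log2 CPM, 0.0059, was below the median counting error of the 158 genes in shoot libraries, 0.023. It is the extreme of 158 genes, so this closeness is not read as a trait of the gene.

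Equal-level genes were about as variable between pools as abundant genes that differed slightly. The 320 abundant genes with a log2 ratio of 0.1 to 0.3 in either direction had median SDs of 0.119 in haustorial and 0.066 in shoot libraries, close to the 0.126 and 0.069 of the equal-level genes. The 311 abundant genes with haustorial means at least 2-fold above the shoot had 0.207 and 0.182, and the 157 with shoot means at least 2-fold above had 0.277 and 0.101. Levels were of the same order in all 4 sets, with median means of 144, 138, 187 and 145 CPM. The strongly changed genes thus had larger medians in both tissues, with no test, since genes do not replicate a condition and those sets have lower counts in 1 tissue.

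The deviations of the genes from their tissue means were summarised by principal components. Within the haustorial region, the first principal component of the deviations held 59.6% of their variance and set libraries 1 and 2 (weights of 0.28 and 0.68) against libraries 3 and 4 (-0.49 and -0.47). Within the shoot, the first component held 62.0% and set libraries 1 and 2 (0.31 and 0.65) against 3 and 4 (-0.35 and -0.60). The first components of the 320 abundant genes with ratios of 0.1 to 0.3 held 59.5% and 58.2%, and those of all tested genes 42.1% and 43.8%. With 4 libraries only 3 components exist in each tissue, a few very variable genes can carry the first, and replicate numbers have no order. Scores on the haustorial and the shoot component were negatively correlated across the 158 genes (Pearson -0.39, Spearman -0.36): 50 genes had a positive haustorial and a negative shoot score, 49 the reverse, 40 both positive and 19 both negative. The same weights, fitted to the 158 genes alone, were then applied to other sets. The Pearson and Spearman correlations were -0.23 and -0.32 over the 320 abundant genes with ratios of 0.1 to 0.3. They were 0.09 and 0.04 over all 1400 other abundant genes, and -0.04 and -0.09 over all tested genes. The rank correlation of the genes just outside the limit was thus close to that of the equal-level genes. These are correlations across genes that share libraries and scaling factors, and are given as a description. Each component was turned so that its largest weight was positive, and no label pairs libraries between tissues. The sign of the correlations follows from that choice and is not read.

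**Figure D5:**
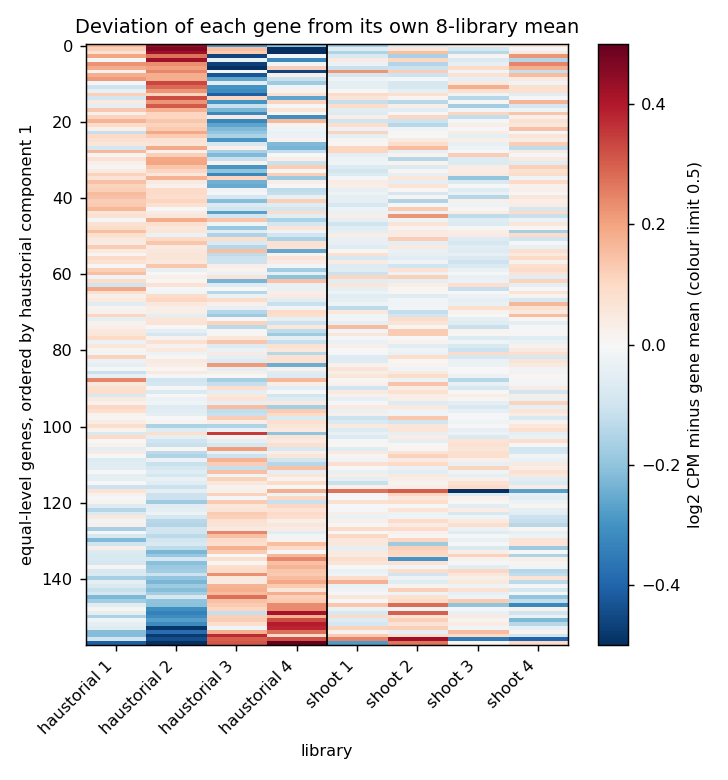
Log2 CPM of each of the 158 equal-level genes in each library, minus the gene's mean over the 8 libraries, with genes in rows ordered by their score on the haustorial component and colours limited at 0.5. Colours are stronger in the 4 haustorial columns than in the 4 shoot columns. The score sets haustorial libraries 1 and 2 against 3 and 4, so the row order fixes part of any such pattern. Single genes depart from it: the gene of rank 105, near the top, had 136 CPM in haustorial library 3 against its mean of 125 CPM.

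The libraries that were highest or lowest of their tissue were counted over the genes. Haustorial libraries 1 to 4 were the highest of their tissue for 37, 41, 38 and 42 of the 158 genes, and the lowest for 11, 47, 58 and 42. Over all tested genes they were the highest for 20.02%, 27.0%, 27.9% and 26.0% and the lowest for 20.8%, 27.0%, 27.4% and 26.7%. Haustorial library 1 was the lowest for 6.96% of the equal-level genes and for 9.69% of the 320 abundant genes with ratios of 0.1 to 0.3. In the shoot, libraries 1 to 4 were the highest for 24, 61, 22 and 51 genes, or 15.2%, 38.6%, 13.9% and 32.3%. The corresponding shares over all tested genes were 24.5%, 27.2%, 22.7% and 25.9%. Shoot libraries 1 to 4 were the lowest for 33, 31, 49 and 45 genes, or 20.9%, 19.6%, 31.0% and 28.5%. Over all tested genes they were the lowest for 23.7%, 22.8%, 26.5% and 27.5%. Shoot libraries 2 and 4 were thus the highest more often among the equal-level genes than among all tested genes. Shoot library 4 was also the lowest about as often as over all tested genes. The genes of a library share its scaling factor. The median log2 deviation of the 158 genes from their tissue mean was -0.011, 0.022, -0.016 and 0.006 in shoot libraries 1 to 4. The highest library was not counted for other abundant genes, so this is not read as particular to the 158.

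Choosing the genes again with 1 library left out gave lists that shared most genes, and allowed the left-out library to be read separately. The lists held 163 to 178 genes and kept 127 to 147 of the 158. A left-out shoot library differed from the haustorial mean by a median absolute log2 value of 0.072 to 0.083 over the genes chosen without it, and 58.4% to 65.0% of them lay within 0.1 in it. A left-out haustorial library differed from the shoot mean by 0.105 to 0.146, with 32.7% to 49.4% within 0.1. Within 0.3 lay 95.2% to 98.8% in shoot and 81.5% to 95.5% in haustorial libraries. For the other abundant genes, 21.8% to 25.9% lay within 0.3. Those genes were chosen to lie outside 0.1 on the remaining libraries, so the choice fixes much of that gap and nothing is read from it. The mean of the other tissue was also part of each choice, and the left-out values were scaled with all 8 libraries. Within these limits, a left-out haustorial pool fell farther from equality than a left-out shoot pool.

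Along the order of identifiers, only directly adjacent genes were examined, and wider runs were not. Of the 158 genes, 2 pairs had consecutive identifiers: the 2 most abundant genes and the genes of ranks 120 and 139. The latter pair did not share a profile, with 130, 157, 94.8 and 100 CPM in haustorial libraries 1 to 4 for rank 120 and 101, 99.1, 97.2 and 117 CPM for rank 139. Among the 254 other tested genes with an identifier directly beside that of an equal-level gene, 12.2% had a log2 ratio within 0.1, against 12.3% of all tested genes, and 23.2% changed at least 2-fold in mean CPM, against 24.8%. Neighbours in identifier order were thus near the background in both respects; whether consecutive identifiers lie side by side in the genome is not stated in the files.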

How the data were processed

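Polyadenylated RNA of 8 pooled samples, 4 per tissue, was sequenced, and samples were grouped by title. The authors deposited raw counts per gene, 1 file per sample. The submitters' processing notes name STAR 2.5.2b; how reads were counted, with what strand setting, build and annotation, is not given in the sources used here. In R 4.3.3, edgeR's filterByExpr selected genes by tissue (minimum count 10, minimum total 15) and libraries were scaled by TMM and compared with edgeR 4.0.16 (robust quasi-likelihood F test, tissue as the only term, Benjamini-Hochberg adjustment over 32855 genes, threshold 0.05). Spread was compared with limma 3.58.1 (absolute deviations of log2 CPM, prior count 2). Alternatives used DESeq2 1.42.0, other scalings, filters and limits, a replicate block and libraries left out in turn. Scripts were tested on simulated data. The genes and measures were chosen with earlier results of these data known. Identifiers were printed for the most abundant and the steadiest gene on each side of a ratio of 0, by rule; other genes, singled out after their values were seen, are given by rank. A count of 3 corresponds to 0.0876 to 0.134 CPM. Same-numbered libraries had correlations of deviations of -0.06 to 0.04 across all tested genes (-0.33 to -0.12 across the 158) and were not treated as pairs.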

Additional observations from a re-analysis of the deposited data

Results flagged for a closer look

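The share of counts held by the 158 genes in shoot library 2, 3.48%, stood apart from the 3.42% to 3.43% of the other shoot libraries by Dixon's criterion for 4 values. The gene of abundance rank 4 stood apart in both tissues: shoot library 1 had 748 CPM against 782 to 788 CPM in the other shoot libraries, and haustorial library 3 had 683 CPM against 811 to 831 CPM in the other haustorial libraries. Chance flags about 1 in 20 groups of values, and over the 158 genes the criterion was met by 9 in haustorial libraries (5.70%) and 12 in shoot libraries (7.59%).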

How the results depend on the processing

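The number of genes followed its limits: a ratio limit of 0.05 gave 85 and 0.2 gave 325, and mean levels of 50 and 200 CPM gave 576 and 49. Other settings gave 158 to 178 genes, but with library totals and no factor only 7 of the 175 were among the original 158; on that scale 51 of the 158 were called, all lower in the haustorial region (66.2% of all tested genes were called), and the interval of 1 lay within 1.2-fold. Genes chosen by RLE scaling held 3.54% of shoot counts, and those chosen by library totals 2.81% of shoot and 2.81% of haustorial counts. With the replicate block, 20659 genes were called between tissues (21412 without it, 20445 shared) and 0 of the 158, with intervals of 71 within 1.2-fold and 157 within 1.5-fold; 139 genes were then called for spread, 0 of them among the 158. The block rests on no known pairing. With each library left out, 61 to 97 intervals lay within 1.2-fold and the haustorial median SD was 0.0959 to 0.142. In those fits 109 to 1072 genes and 0 to 10 of the 158 were called for spread. Between tissues 0 to 1 of the 158 were called (1 without haustorial replicate 3 and 1 without replicate 4). Over all genes, 19980 to 21282 of the 33038 to 33174 tested were called between tissues. The criteria used this contrast, so nothing is read from the calls among the 158. With 1 library left out, the median half-width of the intervals was 0.18 to 0.22, against 0.19 with all libraries. The cause of these changes was not tested. Settings for the 4 identified genes were added after the data were seen, and without a factor the log2 ratio was -0.25 for Cc021347. For the 158 genes the median counting error (SD of 0.024 in haustorial and 0.023 in shoot libraries) was smaller than the median spread between pools (0.126 and 0.069). Over all tested genes the counting error was 0.083 and 0.075, against a median spread of 0.182 and 0.129. The part of depth in the spread was not tested.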
